A study of Mus musculus with 2 samples.

Results

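Metalloproteinases cut the extracellular matrix, and their inhibitors hold them back. The genes described here are the 45 of the 32285 measured genes whose symbol names a matrix metalloproteinase (Mmp, 22 genes), a disintegrin and metalloproteinase with thrombospondin motifs (Adamts, 19 genes) or a tissue inhibitor of metalloproteinases (Timp, 4 genes). The choice used symbols alone and no measured value. Single cells were measured from omental tumors of female C57BL/6J mice aged 12 to 16 weeks that had received KPCA cells into the peritoneum. KPCA is a mouse ovarian cancer line made from fallopian tube epithelium, with overexpressed Ccne1 and Akt2. In KPCA.FSTKO cells the follistatin gene Fst was deleted, and KPCA.FSTKO_hFSTL3 cells carry the same deletion plus a plasmid for human FSTL3, as 1 clone kept under geneticin. Both groups therefore lack Fst in the graft, and the comparison asks what the FSTL3 transgene goes along with. Each group is 1 library of 4 tumors pooled at day 10, so no value below has a replicate and no test between genotypes was possible. All intervals are exact 95% intervals for counting error only.

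Most Mmp enzymes are secreted as inactive precursors that other proteases cleave, while the membrane-type members such as Mmp14 stay on the cell surface and can activate Mmp2. The Adamts enzymes include procollagen processing enzymes such as Adamts2 and the proteoglycan-cutting aggrecanases such as Adamts1, Adamts4, Adamts5 and Adamts9. A Timp protein binds the active site of these enzymes, and Timp3 is the family member that stays bound to the matrix and inhibits several Adamts enzymes. Transcript levels say nothing of whether a protease is active, and before capture the tumors spent 30 min at 37 °C in a digest of DNase I and collagenase type I (2 mg/ml).

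The KPCA.FSTKO library held 168214773 unique molecular identifiers (UMIs, each 1 captured transcript) in 7582 barcodes, and the KPCA.FSTKO_hFSTL3 library held 80391504 in 4244 barcodes. After the filters on mitochondrial share and gene number 6777 and 4041 barcodes were kept, and 12 barcode sequences occurred in both libraries. Cells were put into classes by markers, none of which is a member. The number of cells in KPCA.FSTKO and KPCA.FSTKO_hFSTL3, in that order, was 3246 and 319 cancer-like, 489 and 76 stromal-like, 785 and 143 macrophage-like, 89 and 16 endothelial-like, 35 and 9 pericyte-like, 112 and 2 neutrophil-like, 76 and 14 T/NK-like, 14 and 3 mesothelial-like, 18 and 0 dendritic-like, 18 and 1 B-like, and 80 and 9 erythroid-like. A further 1535 and 568 barcodes passed no gate. Barcodes that passed the gates of unrelated classes were kept apart as multi-gated. These barcodes numbered 280 (4.13% of those kept) in the first library but 2881 (71.3%) in the second, where they carried a median mitochondrial share of 11.8% and a median share of pancreatic acinar transcripts of 0.965%. The gated classes are thus a small part of the KPCA.FSTKO_hFSTL3 library. Levels are given as CPM, the UMIs of a gene relative to all UMIs of a class, from tags near the 3′ end and not per transcript length. Fst tags, which may lie outside the deleted part and so do not check the deletion, stood at 5.09 CPM in the 3246 cancer-like cells of the first library and at 8.67 CPM in the 319 of the other. Stromal-like cells held more Fst, at 100 CPM in KPCA.FSTKO and 186 CPM in KPCA.FSTKO_hFSTL3, so the tumors as a whole were not free of it. Human FSTL3 was not analysed here.

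Of the 22 Mmp genes, 9 lie together on chromosome 9 within 427 kb (GRCm38, GENCODE vM21, from 7272514 to 7699585). Their order is Mmp13, Mmp12, Mmp1b, Mmp3, Mmp10, Mmp8, Mmp27, Mmp20 and Mmp7. Mmp3 and Mmp10, which encode secreted stromelysins, follow each other in this order, which holds members only. The level of each was lower in the cancer-like class of KPCA.FSTKO_hFSTL3. Timp1 lies inside Syn1 and Timp3 inside Syn3, each on the opposite strand of its host, and both were higher in stromal-like cells of that library. The stretches just upstream of these 4 genes are printed because each pair moved together. They are the 250 bases before the RefSeq start on the plus strand of GRCm38.p6, cut at the GENCODE start where that comes earlier, and capitals mark TGANTCA, the motif bound by AP-1 factors, which reads the same on both strands. The windows are chr9:7445572-7445821 for Mmp3, chr9:7502092-7502341 for Mmp10, chrX:20869916-20870165 for Timp1 and chr10:86300162-86300371 for Timp3.
Mmp3: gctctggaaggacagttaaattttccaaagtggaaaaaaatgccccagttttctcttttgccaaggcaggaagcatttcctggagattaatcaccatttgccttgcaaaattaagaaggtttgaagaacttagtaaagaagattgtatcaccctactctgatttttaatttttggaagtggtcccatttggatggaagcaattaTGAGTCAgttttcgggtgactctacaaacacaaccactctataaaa
Mmp10: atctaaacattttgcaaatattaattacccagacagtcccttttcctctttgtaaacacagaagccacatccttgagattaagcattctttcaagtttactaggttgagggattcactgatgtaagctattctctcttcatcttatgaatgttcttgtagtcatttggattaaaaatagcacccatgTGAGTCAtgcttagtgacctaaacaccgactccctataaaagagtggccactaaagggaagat
Timp1: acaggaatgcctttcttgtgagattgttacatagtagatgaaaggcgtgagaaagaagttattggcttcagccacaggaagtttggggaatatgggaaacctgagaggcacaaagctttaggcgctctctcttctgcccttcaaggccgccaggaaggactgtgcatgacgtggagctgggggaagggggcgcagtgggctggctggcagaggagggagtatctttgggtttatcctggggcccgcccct
Timp3: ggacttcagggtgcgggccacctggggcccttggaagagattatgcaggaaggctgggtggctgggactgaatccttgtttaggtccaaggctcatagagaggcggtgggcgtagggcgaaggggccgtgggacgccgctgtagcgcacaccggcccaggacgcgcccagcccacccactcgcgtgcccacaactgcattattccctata
The Mmp3 and Mmp10 windows each hold TGAGTCA, with the first base at -46 and -63 from the RefSeq start, and the Timp1 and Timp3 windows hold no match. Of 31 members with a RefSeq window, 7 hold the motif within 250 bases (Mmp13, Mmp1b, Mmp3, Mmp10 and Mmp20, and Mmp12 and Mmp7 each at 1 of 2 starts). All 7 are among the 9 chromosome 9 genes, and none of the 22 other members with a window holds it. The motif occurs in 6.75% of all 32851 windows of this length. Of the other genes with the motif, Mmp1b and Mmp20 had no UMI in cancer-like cells of either library. In cancer-like cells of KPCA.FSTKO_hFSTL3, Mmp7 was 1.35 times (1.06 to 1.70), Mmp12 0.877 times (0.491 to 1.46) and Mmp13 0.653 times (0.489 to 0.856) as high. Without the top barcode of each library, Mmp13 was 1.96-fold lower there. Any link between the motif and these levels was not tested. A match is a description of these letters and not evidence of binding.

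Of the 45 members, 30 had at least 100 UMIs in the gated classes of both libraries together, 27 of them proteases and 3 of them inhibitors. The other 15 had between 0 and 81 UMIs there. They were Adamts8, Adamts13, Adamts16, Adamts17, Adamts18, Adamts19, Adamts20, Mmp1b, Mmp17, Mmp20, Mmp21, Mmp24, Mmp25, Mmp27 and Timp4. Mmp1b, a collagenase gene that overlaps Mmp12 on the opposite strand, had no UMI in any kept barcode, and Timp4 had 11 and 16 UMIs in all kept barcodes of the 2 libraries. Timp1, Timp2 and Timp3 were therefore nearly the whole measured inhibitor supply. Timp2 shares its strand with the overlapping gene Cep295nl, so its UMIs could be split between them.

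**Figure D1:**
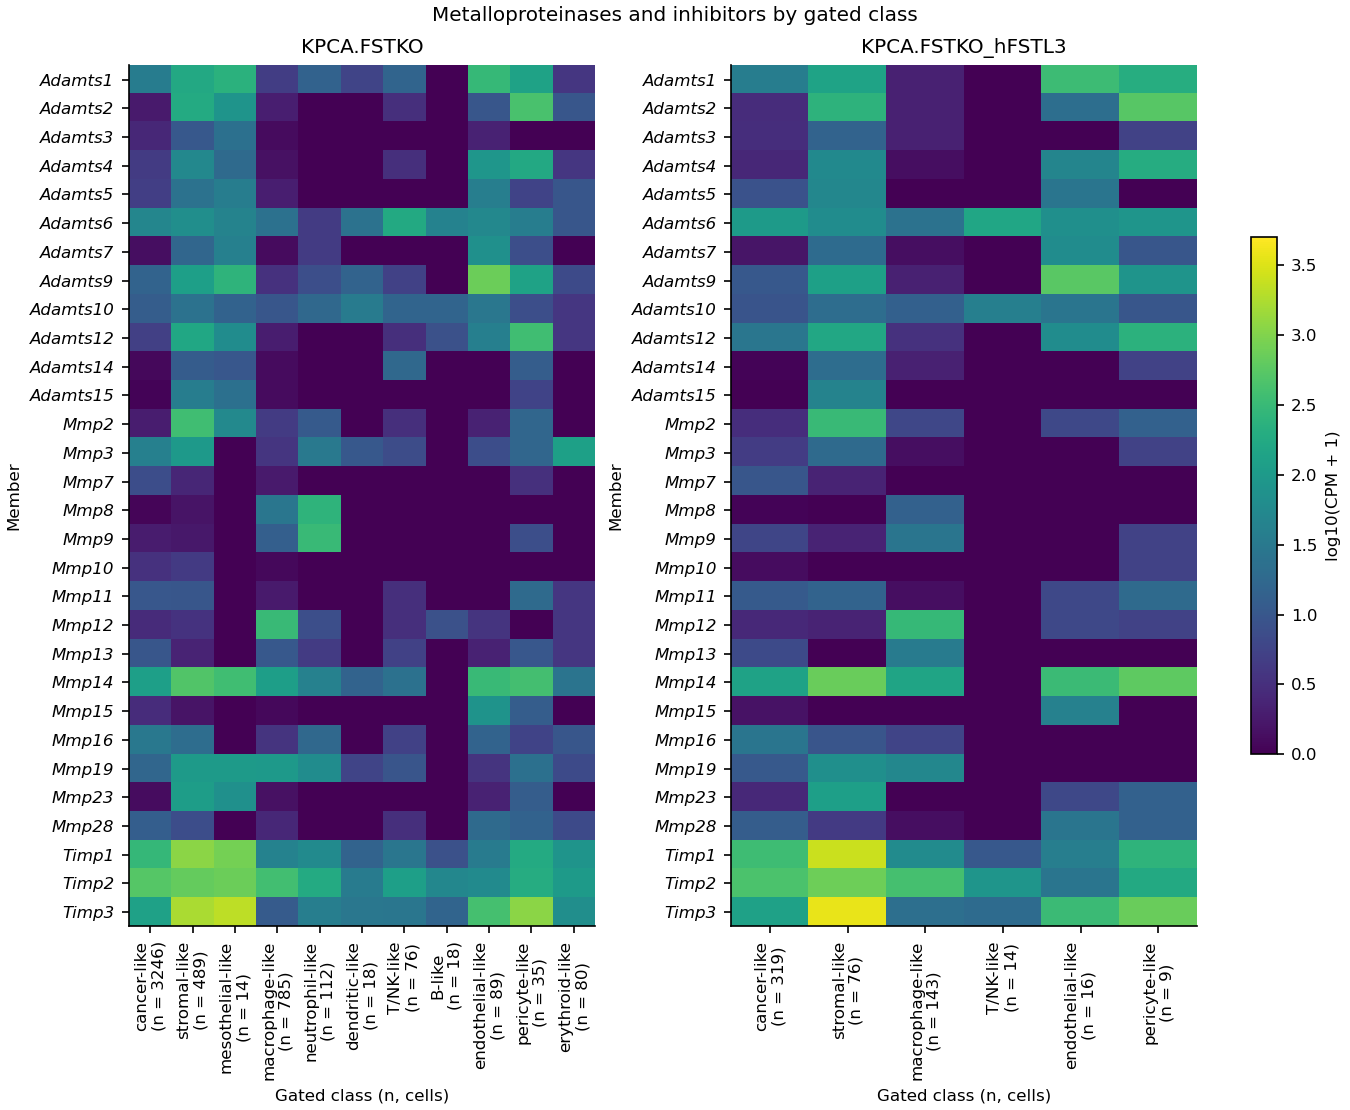
Heat maps of log10(CPM + 1) of the 30 members with at least 100 UMIs, with genes in rows and gated classes of at least 100000 UMIs in columns (n, cells), for each library. In KPCA.FSTKO_hFSTL3 Timp1 and Timp3 are brightest in stromal-like cells (2514 and 3809 CPM), in KPCA.FSTKO Timp3 is brightest in mesothelial-like cells (2120 CPM), and Mmp12 stands out in macrophage-like cells of both.

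Stromal-like cells, gated on collagens and other fibroblast genes, were the class in which more members peaked than in any other. Classes under 100000 UMIs in a library were left out of this count. Of 30 members with at least 100 UMIs in the classes of KPCA.FSTKO, 7 (23.3%) had their highest level in stromal-like cells, against 5.44% of all 13911 genes passing the same minimum. In KPCA.FSTKO_hFSTL3 it was 8 of 21 members (38.1%), against 11.8% of 10012 genes. Both libraries had enough UMIs for 21 members, and for 16 of these the class of highest level was the same. In KPCA.FSTKO the lead was narrow, at 7 members against 6 in endothelial-like cells. The stromal-like peaks of Mmp10, Mmp19, Mmp23 and Adamts15 there lay within counting error of the next class. The gate used collagen genes but no protease or inhibitor.

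In KPCA.FSTKO the other 23 members peaked elsewhere. Endothelial-like cells were highest for 6 members (20%, against 12.4% of all genes), pericyte-like cells for 4 (13.3%, against 10.4%), mesothelial-like cells for 3 (10%, against 11.8%), and cancer-like cells, the largest class, for 2 (6.67%, against 12.6%). Macrophage-like, neutrophil-like and T/NK-like cells were highest for 2 members each, where 5.17%, 11.9% and 14.9% of all genes peaked. Dendritic-like and erythroid-like cells were highest for 1 member each (9.94% and 0.568% of all genes) and B-like cells for none (4.91%). In KPCA.FSTKO_hFSTL3 pericyte-like cells were highest for 4 members (19.0%, against 14.7% of all genes), endothelial-like cells for 3 (14.3%, against 17.3%), macrophage-like cells for 3 (14.3%, against 14%), T/NK-like cells for 2 (9.52%, against 23.8%) and cancer-like cells for 1 (4.76%, against 18.4%). Several of these peaks lie within counting error of the next class.

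Mmp2, the gelatinase that Mmp14 activates, was concentrated in stromal-like cells. In KPCA.FSTKO its level was 361 CPM in stromal-like cells, then 53.8 CPM in the mesothelial-like, 3.33 CPM in the macrophage-like and 0.968 CPM in the cancer-like class. In KPCA.FSTKO_hFSTL3 it measured 321 CPM in stromal-like, 5.10 CPM in macrophage-like and 2.07 CPM in cancer-like cells. The stromal-like level was 373 times (304 to 462) the cancer-like level in KPCA.FSTKO and 155 times (99.5 to 257) in KPCA.FSTKO_hFSTL3. Of all Mmp2 UMIs in kept barcodes of KPCA.FSTKO, 86.4% lay in stromal-like cells, which held 5.96% of all UMIs.

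Mmp14 was spread much more widely. It measured 495 CPM in stromal-like, 390 CPM in pericyte-like, 324 CPM in endothelial-like, 123 CPM in cancer-like and 117 CPM in macrophage-like cells of KPCA.FSTKO. In KPCA.FSTKO_hFSTL3 the same classes stood at 706, 608, 335, 135 and 146 CPM of Mmp14, and there the stromal-like level was 1.16 times (0.971 to 1.40) the pericyte-like level, which is within counting error. The stromal-like level was 4.01 times (3.87 to 4.16) and 5.25 times (4.84 to 5.70) the cancer-like level. Cancer-like and macrophage-like cells could not be separated, since the macrophage-like over cancer-like ratio had intervals of 0.895 to 1.01 and 0.962 to 1.22 in the 2 libraries. Cancer-like cells held 69.0% of all UMIs of KPCA.FSTKO and 55.5% of its Mmp14 UMIs, and stromal-like cells held 19.2% of its Mmp14 UMIs.

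Further members had their nominally highest level in stromal-like cells. Mmp23, a membrane-anchored protease, measured 113 CPM there in KPCA.FSTKO and 120 CPM in KPCA.FSTKO_hFSTL3, while the cancer-like class had 0.346 and 1.65 CPM of it. The next class in KPCA.FSTKO was mesothelial-like at 71.7 CPM, and the ratio of 1.58 (0.969 to 2.78) was not beyond counting error. Mmp19 was shared with macrophage-like cells, at 104 CPM in stromal-like, 103 CPM in mesothelial-like and 100 CPM in macrophage-like cells of KPCA.FSTKO. The stromal-like and mesothelial-like levels of Mmp19 could not be told apart, with a ratio of 1.01 (0.670 to 1.60), and in KPCA.FSTKO_hFSTL3 it measured 69.5 CPM in stromal-like and 51.0 CPM in macrophage-like cells, a ratio of 1.36 (1.04 to 1.77). Adamts15, a proteoglycan-cutting enzyme, stood at 36.5 and 44.3 CPM in the stromal-like classes of the 2 libraries and at 0.0713 and 0 CPM in their cancer-like classes, and in KPCA.FSTKO its ratio to the mesothelial-like level was 1.63 (0.690 to 5.05). Mmp10 was low everywhere in KPCA.FSTKO, at 3.31 CPM in stromal-like and 2.37 CPM in cancer-like cells, a ratio of 1.39 (0.906 to 2.07).

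Several Adamts genes were highest in endothelial-like or pericyte-like cells. In KPCA.FSTKO Adamts2, Adamts4, Adamts9 and Adamts12 stood beyond counting error there. Adamts9 measured 731 CPM in endothelial-like cells of KPCA.FSTKO and 566 CPM in those of KPCA.FSTKO_hFSTL3, 2.91 times (2.21 to 3.90) and 4.43 times (3.47 to 5.63) the next class. Adamts1 was also highest in endothelial-like cells, at 298 and 346 CPM, although in KPCA.FSTKO the ratio to the mesothelial-like level was 1.31 with an interval of 0.961 to 1.80. Adamts2 (432 and 546 CPM), Adamts4 (168 and 195 CPM) and Adamts12 (367 and 235 CPM) were highest in the pericyte-like class of both libraries. For Adamts12 the next class was stromal-like in both libraries, at 158 and 167 CPM. The pericyte-like class held 35 and 9 cells, so single cells can weigh on these values. Its cells also carried stromal-like markers, at a median of 5465 CPM in KPCA.FSTKO and 9324 CPM in KPCA.FSTKO_hFSTL3. Their pericyte-like markers had medians of 8458 and 5980 CPM, so the class is not cleanly apart from fibroblasts. Among the less counted genes, Adamts7, a protease of cartilage oligomeric matrix protein, was nominally highest in endothelial-like cells of KPCA.FSTKO, at 71.4 CPM. Its ratio to mesothelial-like cells was 1.77 (0.869 to 4.07), and it had 52 UMIs in the classes of KPCA.FSTKO_hFSTL3, under the minimum. Mmp15 measured 77.8 CPM in endothelial-like cells of KPCA.FSTKO, 6.95 times (2.82 to 22.2) the next class, and had 13 UMIs in the classes of KPCA.FSTKO_hFSTL3. Adamts5 (37.0 CPM) and Mmp28 (17.9 CPM) were also highest in endothelial-like cells of KPCA.FSTKO, but not beyond counting error, and in KPCA.FSTKO_hFSTL3 Adamts5 was highest in stromal-like cells at 51.0 CPM. Mmp11, first known from tumor stroma, was at 17.9 CPM in pericyte-like and 9.20 CPM in cancer-like cells of KPCA.FSTKO, a ratio of 1.95 (0.838 to 3.85). The procollagen processing enzymes Adamts3 and Adamts14 were scarce, with stromal-like levels of 9.45 and 10.9 CPM in KPCA.FSTKO, and their nominally highest classes there, mesothelial-like at 22.4 CPM and T/NK-like at 16.9 CPM, did not stand beyond counting error.

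A few members peaked in immune classes. Mmp8, the neutrophil collagenase, measured 257 CPM in neutrophil-like cells of KPCA.FSTKO, 9.41 times (7.21 to 12.2) its macrophage-like level of 27.4 CPM. Mmp9, the gelatinase of neutrophil granules, was higher still there, at 318 CPM against 12.1 CPM in the macrophage-like class, a ratio of 26.4 (19.99 to 34.7). KPCA.FSTKO_hFSTL3 had only 2 neutrophil-like cells with 5169 UMIs, which is too few to measure either gene. Adamts6 was highest in T/NK-like cells, at 173 CPM and 152 CPM, and its ratio to the next class was 2.62 (2.05 to 3.31) in KPCA.FSTKO but 1.48 (0.842 to 2.41) in KPCA.FSTKO_hFSTL3. Adamts10, a protease of the fibrillin network, was spread thinly, from 2.88 CPM in erythroid-like to 33.1 CPM in dendritic-like cells of KPCA.FSTKO. Cancer-like cells were the highest class for Mmp16, a membrane-type protease, at 29.6 and 26.6 CPM, and, in KPCA.FSTKO, for the epithelial protease Mmp7 at 6.50 CPM, where its ratio to the next class of 2.90 had an interval of 0.519 to 115.

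Mmp3 was high in both cancer-like and stromal-like cells of KPCA.FSTKO. Its level was 94.6 CPM in the stromal-like class, 39.6 CPM in the cancer-like class and 2.76 CPM in the macrophage-like class. Erythroid-like cells were nominally above all of them, at 127 CPM, from 44 UMIs in 3 cells, with a ratio to stromal-like cells of 1.34 (0.966 to 1.82). The UMIs of Mmp3 were concentrated in few cells. Of 3246 cancer-like cells of KPCA.FSTKO, 192 held at least 5 Mmp3 UMIs each, 5.91% of cells (5.13 to 6.78), and together 86.9% of the Mmp3 UMIs of the class. No macrophage-like cell of 785 reached 5 Mmp3 UMIs, which allows a share of up to 0.382%, with 3 counts as the limit for a count of 0. Macrophage-like cells were shallower, at a median of 12745 UMIs against 28790 in cancer-like cells, so fewer could reach a fixed count. The same 192 cells measured 39.8 CPM (35.2 to 44.9) of Mmp13, a collagenase, against 5.88 CPM (5.37 to 6.43) in the 2744 cancer-like cells without an Mmp3 UMI, and 7.94 CPM (5.95 to 10.4) against 1.87 CPM (1.58 to 2.19) of Mmp10. Their Mmp14 was not above that of the other cells, at 107 CPM against 125 CPM. Inhibitors were higher in them too, with Timp1 at 382 CPM (367 to 397) against 286 CPM (282 to 290). Timp2 stood at 618 CPM (599 to 637) against 518 CPM (513 to 523), while Timp3 differed little, at 138 CPM against 131 CPM. The cells were chosen by their own Mmp3 count, and their median of 33608 UMIs was above the 28650 of the cells without it.

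Mmp12, the macrophage elastase, was highest in macrophage-like cells. They held 54.8% of the Mmp12 UMIs of KPCA.FSTKO, whose ungated barcodes held 40.2%. For KPCA.FSTKO_hFSTL3 the share was 27.2%, and multi-gated barcodes held 61.9%. The gene stood at 325 and 297 CPM in the macrophage-like classes of KPCA.FSTKO and KPCA.FSTKO_hFSTL3, 172 times (148.5 to 200.8) and 180 times (110 to 316) the cancer-like levels of 1.88 and 1.65 CPM. In KPCA.FSTKO_hFSTL3 a single cell held 289 of the 756 Mmp12 UMIs of the class. The UMIs of Mmp12 lay in a small share of the cells in both libraries. In KPCA.FSTKO 121 of 785 macrophage-like cells held at least 5 Mmp12 UMIs each, 15.4% of cells (13.0 to 18.1), and with them 93.2% of the UMIs, and in KPCA.FSTKO_hFSTL3 it was 20 of 143 cells, 14.0% (8.76 to 20.8), with 96.0%. Only 4 of the 3246 cancer-like cells of KPCA.FSTKO, which were deeper, held that many.

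In KPCA.FSTKO Mmp12 was higher where macrophage markers were lower. It measured 1181 CPM in the 138 cells whose summed macrophage markers lay between 1000 and 4000 CPM, which the gate leaves out. Within the gate it measured 670 CPM in 194 cells between 4000 and 8000, 279 CPM in 406 cells between 8000 and 16000 and 70.7 CPM in 185 cells above 16000. Timp2 ran the other way, at 223, 221, 348 and 638 CPM in the same ranges, and Mmp19 followed Mmp12 weakly, at 147, 142, 96.7 and 65.3 CPM. In KPCA.FSTKO_hFSTL3 Mmp12 measured 375 CPM in 41 cells, 343 CPM in 76 cells and 2.44 CPM, a single UMI, in 26 cells of the 3 ranges within the gate. These values rest on single cells, since without the cell richest in Mmp12 the first and the second were 175 and 144 CPM, while in KPCA.FSTKO the 4 ranges without such a cell were 1008, 592, 255 and 57.3 CPM. The 73 cells of that library between 1000 and 4000 CPM carried a median of 888 CPM of cancer-like and 1358 CPM of stromal-like markers and 0.689% acinar transcripts, so they are no clean macrophage class. The ranges are cuts of 1 score and not cell types.

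**Figure D2:**
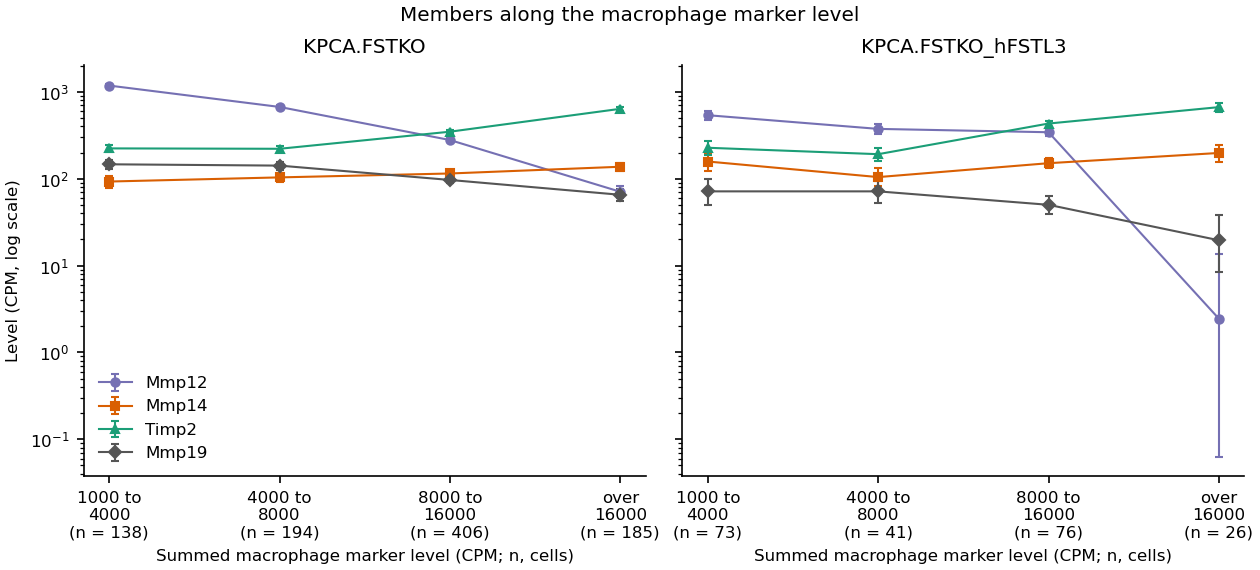
Level in CPM (log scale) of Mmp12, Mmp14, Mmp19 and Timp2 in cells grouped by their summed macrophage marker CPM (n, cells), with exact 95% Poisson bars. In KPCA.FSTKO Mmp12 goes from 1181 to 70.7 CPM while Timp2 goes from 223 to 638 CPM.

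The 3 inhibitors differed in how strongly they were concentrated in stromal-like cells. All 3 had their highest level there in KPCA.FSTKO_hFSTL3, and Timp1 did so in KPCA.FSTKO too. Timp1, the secreted inhibitor that cytokines induce, measured 1125 CPM in stromal-like, 294 in cancer-like and 42.7 in macrophage-like cells of KPCA.FSTKO, and 2514, 352 and 60.1 CPM in those of KPCA.FSTKO_hFSTL3. Timp3 was more stromal still, at 1697, 132 and 10.6 CPM in KPCA.FSTKO and 3809, 128 and 21.6 CPM in KPCA.FSTKO_hFSTL3. Mesothelial-like cells of KPCA.FSTKO measured 2120 CPM of Timp3, 1.25 times (1.14 to 1.37) the stromal-like level, from 14 cells. These 14 cells carried a median of 10817 CPM of stromal-like and 1387 CPM of mesothelial-like markers, so they are not cleanly apart from the stromal-like class. Timp2, which also takes part in the activation of Mmp2, was the most even of the 3 over the stromal-like, cancer-like and macrophage-like classes. It measured 679, 527 and 383 CPM in these classes of KPCA.FSTKO and 774, 447 and 404 CPM in KPCA.FSTKO_hFSTL3. Its mesothelial-like to stromal-like ratio in KPCA.FSTKO was 1.09 (0.927 to 1.27). In endothelial-like cells of KPCA.FSTKO Timp2 gave only 11.5% of the Timp UMIs. Timp2 gave 55.3% of the Timp UMIs of cancer-like and 87.8% of those of macrophage-like cells in KPCA.FSTKO, while Timp3 gave 48.5% in stromal-like and 80.1% in endothelial-like cells.

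**Figure D3:**
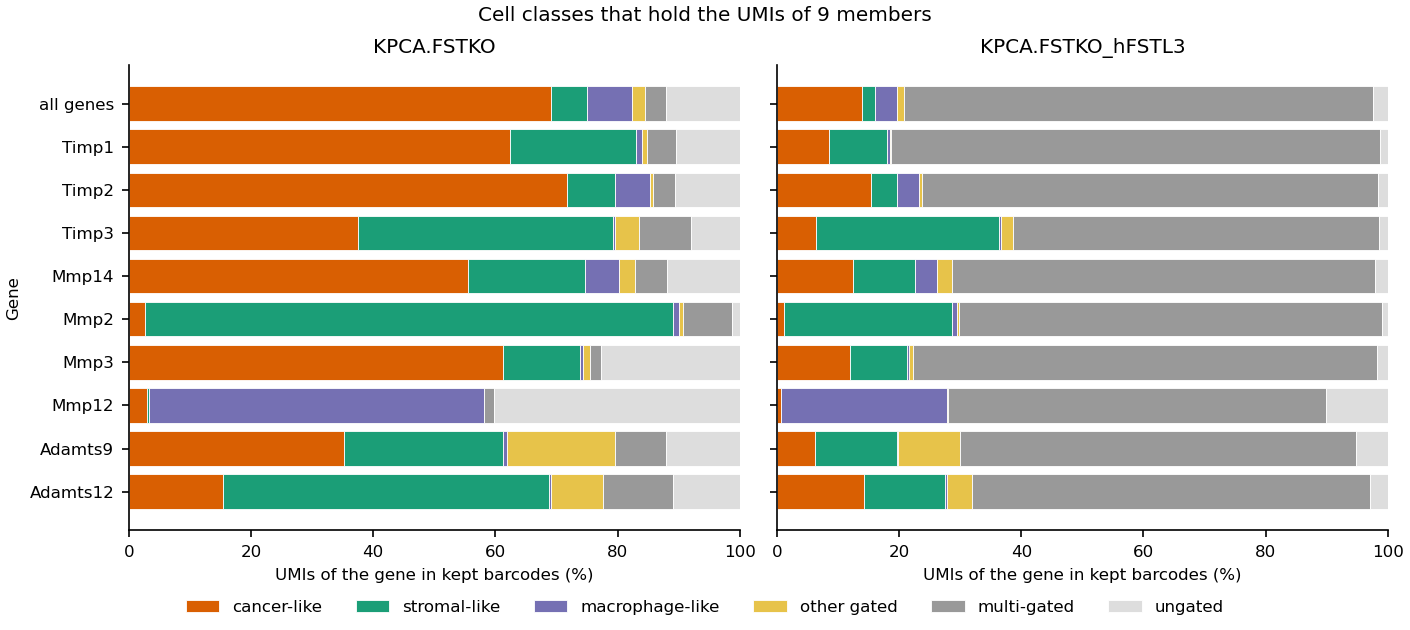
Stacked bars of the percentage of the UMIs of 9 members, and of all genes, that lay in each cell class, in kept barcodes of each library. In KPCA.FSTKO stromal-like cells hold 86.4% of Mmp2 UMIs and 41.8% of Timp3 UMIs, and in KPCA.FSTKO_hFSTL3 multi-gated barcodes hold 76.9% of all UMIs.

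Summed by family, cancer-like cells of KPCA.FSTKO held 61.2% of the Timp UMIs and 44.6% of the Mmp and Adamts UMIs, stromal-like cells 19.4% and 21.5%, and macrophage-like cells 3.01% and 8.23%. Macrophage-like cells therefore gave a larger part of the proteases than of the inhibitors, and cancer-like cells a larger part of the inhibitors. Set against each other within a class, inhibitors outweighed proteases in cancer-like and stromal-like cells. Proteases outweighed inhibitors in macrophage-like, endothelial-like and pericyte-like cells. Summed over the 4 Timp and the 41 protease genes, cancer-like cells of KPCA.FSTKO held 2.53 Timp UMIs (2.50 to 2.56) per protease UMI, stromal-like cells 1.67 (1.64 to 1.70) and macrophage-like cells 0.674 (0.649 to 0.700). Endothelial-like cells held 0.276 (0.246 to 0.309), neutrophil-like cells 0.335 (0.257 to 0.431) and pericyte-like cells 0.830 (0.748 to 0.919). The macrophage-like ratio rested on few cells, since without the 5% of barcodes with most member UMIs it was 0.995 in KPCA.FSTKO and 1.18 in KPCA.FSTKO_hFSTL3. UMI numbers of different genes depend on how well each transcript is captured, so a ratio above 1 does not mean more inhibitor than protease protein.

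In KPCA.FSTKO_hFSTL3 the stromal-like ratio was 3.15 (3.03 to 3.27), against 1.67 in KPCA.FSTKO. The summed protease level there was 2254 CPM against 2099 CPM in KPCA.FSTKO, and the summed Timp level was 7097 CPM against 3501 CPM. The cancer-like ratio was 2.20 (2.12 to 2.29), the macrophage-like ratio 0.776 (0.720 to 0.837) and the endothelial-like ratio 0.233 (0.179 to 0.300). Pericyte-like cells went the other way from stromal-like cells, at 0.544 (0.465 to 0.634) against 0.830 in KPCA.FSTKO. Their summed Timp level was 1137 CPM in 9 cells, against 1527 CPM in 35 cells of KPCA.FSTKO. The order of cancer-like and stromal-like cells thus differed between the libraries, with cancer-like cells higher in KPCA.FSTKO and stromal-like cells higher in KPCA.FSTKO_hFSTL3. With each cell weighted equally, stromal-like cells held 1.42 in KPCA.FSTKO and 2.30 in KPCA.FSTKO_hFSTL3, and cancer-like cells 2.32 and 2.43, so in that weighting the order did not change.

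**Figure D4:**
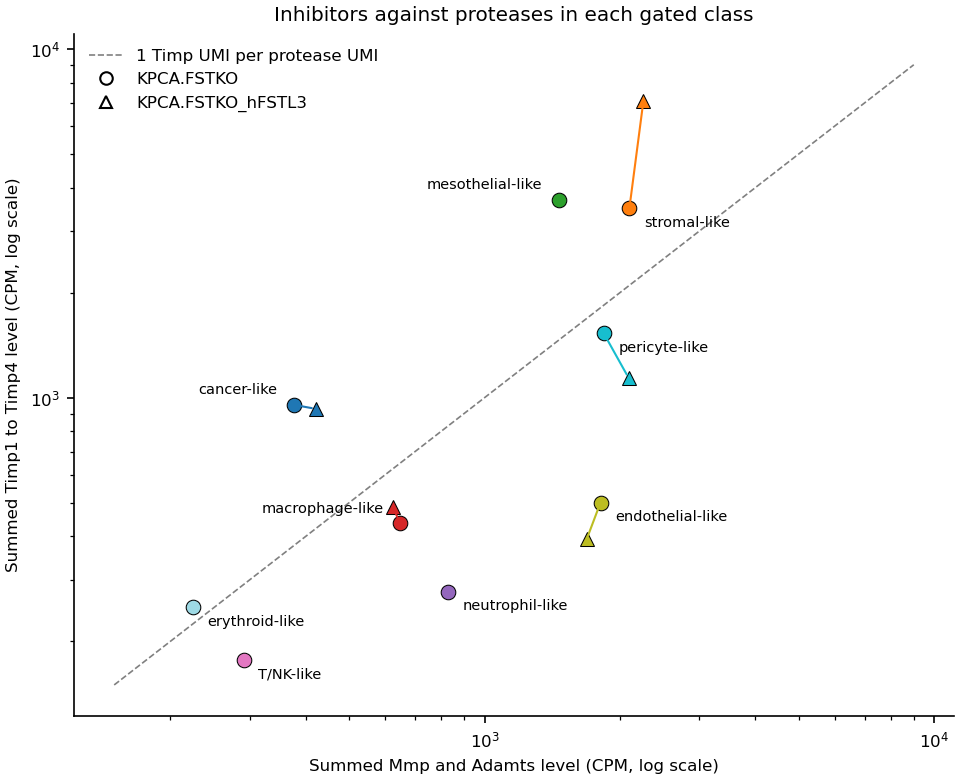
Summed Timp CPM against summed Mmp and Adamts CPM (both log scales) for gated classes of at least 100000 UMIs and at least 100 member UMIs, with circles for KPCA.FSTKO, triangles for KPCA.FSTKO_hFSTL3 and a line joining both libraries of a class. Points above the dashed line have more Timp than protease UMIs, and the stromal-like point moves up from 3501 to 7097 CPM of Timp.

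Between the libraries, members were compared in the 3 classes with most cells. A member is called higher or lower where both libraries together hold 100 or more of its UMIs in the class and its CPM differs by a factor of 2 or more. This is a rule of size and not a test. In stromal-like cells 3 of 21 members were higher in KPCA.FSTKO_hFSTL3 (Timp1, Timp3 and Adamts5), where 1.81% of 8844 genes were, and 2 were lower (Mmp3 and Mmp16), where 3.84% of genes were. The median log2 ratio was 0.10 over the 21 members and 0.01 over all genes.

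Timp1 was 2.23 times (2.15 to 2.32) and Timp3 2.24 times (2.18 to 2.31) as high in stromal-like cells of KPCA.FSTKO_hFSTL3. The count rests in part on single cells, since the top barcode of KPCA.FSTKO_hFSTL3 held 391 of 3798 Timp1 UMIs and 709 of 5755 Timp3 UMIs. Without the top barcode of each library, Timp1 was 2.15 times and Timp3 2.11 times as high. With the marker cuts doubled neither passed, at 1.89 and 1.78 times, nor with each cell weighted equally, at 1.70 and 1.85 times, and with cells thinned to 1000 UMIs only Timp3 passed (1.74 and 2.03 times). Timp2 and the most counted proteases of the same cells did not pass, with Mmp14 at 1.43 times (1.33 to 1.53), Mmp2 at 0.889 times (0.806 to 0.979), Mmp23 at 1.06 times (0.901 to 1.25) and Timp2 at 1.14 times (1.07 to 1.21). Adamts5, an aggrecanase, stood at 23.7 and 51.0 CPM, 2.15 times (1.63 to 2.81) as high, but 1.76 times without its top barcodes. Mmp3 was 5.29-fold lower (3.61 to 8.08), at 94.6 and 17.9 CPM from 801 and 27 UMIs. These 27 UMIs lay in 4 of 76 cells, and the ratio without its top barcodes was 8.30-fold lower. Cells with at least 5 Mmp3 UMIs were 35 of 489 (7.16%, 5.04 to 9.81) in KPCA.FSTKO. In KPCA.FSTKO_hFSTL3 they were 2 of 76 (2.63%, 0.320 to 9.18), so the intervals of these shares overlap. Mmp16 was 2.33-fold lower (1.33 to 4.47), with 13 UMIs in KPCA.FSTKO_hFSTL3. The stromal markers summed to 22163 and 26263 CPM in these cells, the 20 acinar genes to 135 and 1041 CPM and the cancer-like markers to 262 and 145 CPM, and the part of these in the differences was not tested.

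In cancer-like cells 6 of 25 members were higher in KPCA.FSTKO_hFSTL3, where 3.47% of 12769 genes were, and 4 were lower, where 5.98% were. Adamts12, a protease that cuts cartilage oligomeric matrix protein, went furthest up, from 3.94 CPM (387 UMIs) to 27.8 CPM (269 UMIs). It was 7.05 times (6.01 to 8.25) as high. Its level in stromal-like cells differed little between the libraries, at 1.06 times (0.921 to 1.21). In cancer-like cells of KPCA.FSTKO_hFSTL3 there were 13.5 Adamts12 UMIs (8.54 to 22.4) per Mmp2 UMI, while stromal-like cells of that library had 0.520 (0.444 to 0.606). Adamts12 also exceeded Mmp2 in the 9 pericyte-like cells of that library, at 235 CPM against 13.3 CPM. The summed stromal markers in cancer-like cells were 611 CPM in KPCA.FSTKO and 415 CPM in KPCA.FSTKO_hFSTL3, all 10 of them with UMIs in both, and the acinar genes summed to 59.9 and 782 CPM. Their part in the differences was not tested. Across the 9 alternatives run for it, Adamts12 stayed between 4.78 and 11.7 times as high.

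Mmp9 was 5.53 times (3.81 to 7.95) as high in cancer-like cells of KPCA.FSTKO_hFSTL3, at 0.896 and 4.96 CPM, from 88 and 48 UMIs. The summed neutrophil markers there were 4.66 and 8.36 CPM, and macrophage markers 38.9 and 55.7 CPM. Their part in the Mmp9 difference was not tested. Adamts6 was 2.11 times (1.97 to 2.27) as high, at 48.5 and 103 CPM, and 2.00 times without its top barcodes. Adamts2 (2.24 times), Mmp2 (2.13 times) and Adamts5 (2.02 times) passed with 19, 20 and 74 UMIs in KPCA.FSTKO_hFSTL3, and all 3 fell under the ratio of 2 without their top barcodes.

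Mmp3 and Mmp10 went furthest down, while Mmp11, which is also called a stromelysin, was at 1.11 times (0.894 to 1.37). In the cancer-like class Mmp3 went from 39.6 CPM (3886 UMIs) in KPCA.FSTKO down to 3.61 CPM (35 UMIs), 10.95-fold lower (7.86 to 15.7). The cells with at least 5 Mmp3 UMIs, 192 of 3246 in KPCA.FSTKO, numbered 1 of 319 in KPCA.FSTKO_hFSTL3, 0.313% (0.00794 to 1.73), at median depths of 28790 and 28264 UMIs. Mmp10 was 7.66-fold lower (2.59 to 37.4), from 233 UMIs to 3 UMIs. Mmp15, a membrane-type protease, was 3.87-fold lower (1.63 to 12.04) from 196 UMIs to 5 UMIs, and Adamts4 was 2.20-fold lower (1.31 to 3.97), although with multi-gated cells assigned to classes it was 1.31 times as high. All 4 stayed lower by the rule without their top barcodes. Mmp13 was 1.53-fold lower (1.17 to 2.04) and did not pass, nor did it without its top barcodes, at 1.96-fold lower. Mmp16 (0.899 times, 0.789 to 1.02) differed little.

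**Figure D5:**
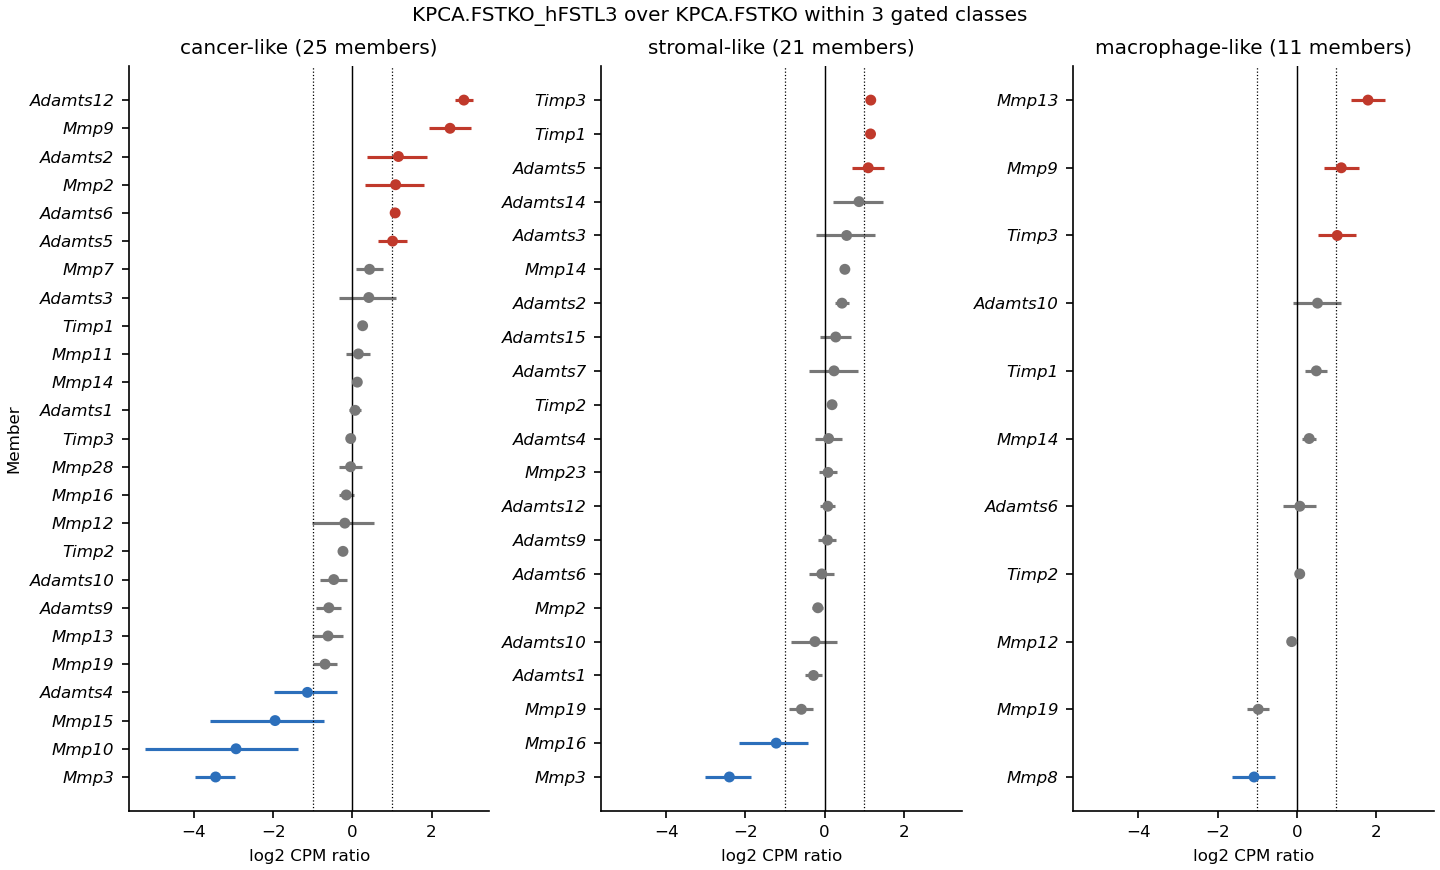
log2 ratio of CPM in KPCA.FSTKO_hFSTL3 over KPCA.FSTKO for each member with at least 100 UMIs, in the cancer-like, stromal-like and macrophage-like classes, with exact 95% conditional binomial bars for counting error. Red and blue points are past a ratio of 2 (dotted lines) upward and downward, and Mmp3 is furthest down in both cancer-like (-3.45) and stromal-like (-2.40) cells.

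The inhibitors of cancer-like cells moved little. Timp1 was 1.20 times (1.16 to 1.24) as high in KPCA.FSTKO_hFSTL3, Timp3 0.972 times (0.916 to 1.03) and Timp2 0.849 times (0.823 to 0.875). Mmp14 was 1.09 times (1.03 to 1.15) as high. The median log2 ratio was -0.04 over the 25 members and 0.01 over all genes.

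In macrophage-like cells 3 of 11 members were higher in KPCA.FSTKO_hFSTL3, where 1.67% of 8647 genes were, and 1 was lower, where 1.43% were. Each of the 3 higher members rested on 1 barcode. For Mmp13 (3.48 times) 65 of its 85 UMIs in KPCA.FSTKO_hFSTL3 lay in 1 cell, for Mmp9 (2.18 times) 38 of 67 and for Timp3 (2.03 times) 42 of 55. Without the top barcode of each library the ratios were 0.948, 1.57 and 0.539. Mmp8, which marked neutrophil-like cells above, was 2.11-fold lower (1.47 to 3.13), while the summed neutrophil markers in macrophage-like cells were 297 CPM in KPCA.FSTKO and 186 CPM in KPCA.FSTKO_hFSTL3, and the acinar genes summed to 105 and 1418 CPM. Their part in the differences was not tested. Mmp19 lay just inside, at 1.96-fold lower (1.64 to 2.38), and passed at 2.12-fold lower without its top barcodes. Mmp12 was 0.914 times (0.844 to 0.989) as high, but 0.606 times without its top barcodes. Mmp14 was 1.24 times (1.10 to 1.40) and Timp2 1.05 times (0.982 to 1.13) as high. The median log2 ratio was 0.31 over the 11 members and 0.10 over all genes.

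The wider pathway was followed in 34 further genes, which included the membrane inhibitor Reck, procollagen C-proteinases and their enhancers, Adam proteases, the clearance receptor Lrp1 and Adamts-like proteins. In cancer-like cells 2 of the 17 with at least 100 UMIs were higher in KPCA.FSTKO_hFSTL3 (Pcolce2 and Adamtsl4) and 2 were lower (Adamtsl3 and Adam19), against 3.47% and 5.98% of all genes. In stromal-like cells 2 of 16 were higher (Adamtsl1 and Thsd4) and 1 was lower (Tll1), against 1.81% and 3.84% of all genes. In macrophage-like cells none of 10 was higher and 2 were lower (Pcolce and Adamtsl4), against 1.67% and 1.43% of all genes. Pcolce2, which enhances the trimming of procollagen, stood at 14.4 CPM in the cancer-like class of KPCA.FSTKO and at 79.0 CPM in that of KPCA.FSTKO_hFSTL3, 5.48 times (5.01 to 5.99) as high. Its relative Pcolce was 0.542 times (0.520 to 0.565) as high, at 453 and 245 CPM. Of the list's most counted genes in cancer-like cells, Bsg, an inducer of Mmp genes at the cell surface, was 0.908 times, Lrp1 1.16 times, Adam10 0.967 times and Adam9 0.670 times as high. In stromal-like cells Bmp1, the main procollagen C-proteinase, was 1.40 times (1.28 to 1.52) as high, at 340 and 474 CPM, and Tll1, a protease of the same kind, was 6.99-fold lower (3.16 to 19.2), from 235 UMIs to 6 UMIs.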

How the data were processed

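The 2 deposited matrices hold raw UMI counts per gene and barcode, which the authors made from 10x Genomics 3′ libraries with Cell Ranger (version 3.1.0 in the submitters' processing notes, 7.2.0 in the matrix header) on mm10. The deposited barcodes number the same as the cells the methods give after quality control, but the stated filter (mitochondrial share under 20%, more than 200 and fewer than 8000 genes) leaves 6777 and 4041. Cells were gated into 11 classes: at least 3 markers with a UMI and a cut on summed marker CPM, set after the data were seen, between 300 CPM (mesothelial-like) and 100000 CPM (erythroid-like), with 1000 for cancer-like, 5000 for stromal-like and 4000 for macrophage-like cells. Stromal-like with mesothelial-like or pericyte-like, mesothelial-like with cancer-like and macrophage-like with dendritic-like counted as related. Cells near a cut, within 1.5 times above it, numbered 424 cancer-like, 86 stromal-like and 105 macrophage-like in KPCA.FSTKO. No doublet caller was run, and cells of unrelated gates were kept apart. UMIs were summed by class, with exact Poisson, Clopper-Pearson and conditional binomial 95% intervals, and the limit for a count of 0 is 3 counts. The members, lists and rules were chosen with earlier results of these data known. All members are accounted for, those with at least 100 UMIs by value, and of the further genes up to 6 with most UMIs by value. Pcolce2 and Tll1 were added with their values in view. The counting step, tested on simulated data, is not a significance test. Alternatives changed the barcodes, gates, weighting, depth (1000 UMIs per cell), scaling (TMM, edgeR 4.0.16, R 4.3.3) and thresholds. Leaving out the barcode with most UMIs of a member was added after the data were seen. The rest ran in Python 3.11.15 (scipy 1.17.1, numpy 2.4.6, matplotlib 3.10.9, pandas 2.3.3). Promoter windows came from a RefSeq table of GRCm38.p6, which 31 of 45 members matched.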

Additional observations from a re-analysis of the deposited data

How the results depend on the processing

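Under 140 alternatives to the 14 summary values, 92 stayed within 1.5 times (counts) or within the counting interval (ratios), 47 moved beyond it and 1 crossed 1. Timp per protease UMI in KPCA.FSTKO was 2.87, 1.80 and 0.924 in the cancer-like, stromal-like and macrophage-like classes with cuts doubled, 2.32 (cancer-like) and 1.42 (stromal-like) with cells weighted equally, 1.40 (stromal-like) with cells thinned, 1.44 (stromal-like) and 0.995 (macrophage-like) without the 5% of barcodes with most member UMIs, and 0.537 (macrophage-like) with that gate at 1000 CPM, an alternative chosen after seeing the data. In KPCA.FSTKO_hFSTL3 it was 2.41 (cancer-like) and 0.878 (macrophage-like) with cuts doubled, 2.73 (cancer-like) with multi-gated cells assigned, 2.43 (cancer-like) and 2.30 (stromal-like) with cells weighted equally, 2.52 (stromal-like) with cells thinned, and 2.10, 2.61 and 1.18, the last of them past 1, without the top 5%. Members highest in stromal-like cells of KPCA.FSTKO_hFSTL3 numbered 5 with all barcodes, 13 at 20 UMIs and 16 with no filter. Members higher in KPCA.FSTKO_hFSTL3 were, in cancer-like cells, 3 with cuts doubled and with TMM, 10 with multi-gated cells assigned, 2 without the top 5% and 11 with no filter. In stromal-like cells they were 0 with cuts doubled, 1 with cells weighted equally, 5 at 20 UMIs and 6 with no filter, and in macrophage-like cells 1 thinned and with TMM, 0 without the top 5% and 9 with no filter. Members lower were, in cancer-like cells, 8 thinned, 7 at a ratio of 1.5 and 12 with no filter, in stromal-like cells 1 with cuts doubled, 4 thinned and 8 with no filter, and in macrophage-like cells 2 with cuts doubled, with multi-gated cells assigned, with TMM and at a ratio of 1.5, 0 with cells weighted equally, 4 thinned and at 20 UMIs, and 15 with no filter. Of single members, Adamts4 turned in cancer-like cells to 1.31 times with multi-gated cells assigned and 1.32 thinned, and Adamts5 to 0.622 thinned. In macrophage-like cells Mmp9 turned to 0.479 thinned, and Timp3 to 0.217 with cuts doubled, 0 thinned and 0.672 without the top 5%. TMM shifted log2 ratios by -0.12, -0.06 and -0.15 in the classes in that order. The cause of these changes was not tested. No paired analysis was possible because each genotype is 1 library. Depth limits Mmp10 and Mmp15, with 3 and 5 UMIs in cancer-like cells of KPCA.FSTKO_hFSTL3.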

Other observations

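Multi-gated barcodes, which belong to no comparison above, held most member UMIs of KPCA.FSTKO_hFSTL3. They carried 73.9% of its Timp and 67.1% of its protease UMIs, next to 76.9% of all UMIs, and 2.82 Timp UMIs (2.78 to 2.86) per protease UMI. In the 280 multi-gated barcodes of KPCA.FSTKO the figure was 1.86 (1.79 to 1.93). Timp1 measured 595 CPM in multi-gated barcodes of KPCA.FSTKO_hFSTL3 and 452 CPM in those of KPCA.FSTKO, Timp3 215 and 593 CPM, Mmp14 135 and 236 CPM, Mmp3 4.12 and 23.5 CPM, and Mmp12 32.1 and 20.02 CPM. Timp3 was thus 2.76-fold lower (2.64 to 2.87) in the multi-gated barcodes of KPCA.FSTKO_hFSTL3, opposite to the stromal-like class. In KPCA.FSTKO these barcodes held 5412 CPM of stromal-like markers. In KPCA.FSTKO_hFSTL3 they held 2650 CPM of cancer-like, 1875 CPM of stromal-like, 1549 CPM of macrophage-like and 3709 CPM of erythroid-like markers, and 9406 CPM of the acinar genes.

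Ungated barcodes of KPCA.FSTKO, 22.7% of the kept barcodes, had 1.08 Timp UMIs (1.06 to 1.11) per protease UMI and 83.9 CPM of Mmp3, above the 39.6 CPM of cancer-like cells. Adamtsl4 went opposite ways by the rule of size, 2.44 times (2.15 to 2.77) as high in cancer-like cells and 2.27-fold lower (1.70 to 3.09) in macrophage-like cells of KPCA.FSTKO_hFSTL3. The difference between the classes was not tested.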
